A study of Mus musculus with 12 samples.

Results

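The interaction between Auts2 genotype and context was examined in all 12 of the 12 libraries of the series. It was defined as the knockout effect in the hippocampus at postnatal day 14 (P14) minus the knockout effect in the forebrain at postnatal day 0 (P0). The P0 knockouts (cmv-cre_auts2-ex7koko, n = 3) carried Auts2 alleles with exon 7 deleted through Cmv-cre, a transgene active throughout the body. Their controls were labelled BL6 WTLM (n = 3), which the protocol describes as wild-type littermates. The P14 knockouts (nes-cre_auts2-ex7koko, n = 3) lost the exon through Nes-cre, which acts in neural progenitors and their progeny, so that blood vessels, microglia and other cells outside that lineage can keep it. Their controls were labelled auts2-ex7-fl-het (n = 3), and whether these carried Cre is not given. All mice were male, and each library came from 1 animal. The contexts differed in age, tissue, control genotype and Cre line at once, so their parts in any interaction cannot be told apart. In whole tissue, fewer cells of a type and less RNA per cell cannot be told apart either.

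AUTS2 is a neuronal protein that works in the nucleus with a variant Polycomb complex, where it has been linked to gene activation, and in the cytoplasm with Rac1 in neurite growth. Its long isoform contains the sequence encoded by exon 7, and a shorter isoform starts further downstream. In the developing forebrain, newborn neurons switch off a program of immature genes and then build up release machinery, receptors, channels and adhesion molecules. An interaction gene is one whose response to the loss of the exon differed between the newborn forebrain and the juvenile hippocampus.

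The P0 libraries held 11247150 to 16796797 counted reads each and the P14 libraries 16830720 to 23340621. Levels are given as CPM, gene counts scaled to the library total, on scaled library sizes, which are not corrected for gene length, so they compare libraries and not genes. Auts2 (ENSMUSG00000029673, GRCm38 chromosome 5, 131437333 to 132543344, minus strand) had 160, 136 and 155 CPM in P0 wild types and 165, 182 and 161 in P0 knockouts. It had 97.46, 97.96 and 110.3 CPM in P14 controls and 93.0, 77.5 and 75.2 in P14 knockouts. Counts of the whole gene sum its isoforms, so they do not check the deletion. Its difference between contexts was -0.48 on the log2 scale (SE 0.13, edgeR adjusted p 0.0565), short of the threshold. Of 10 forebrain and 10 hippocampal marker genes, all were expressed highly enough to be tested, while only 1 of 14 hindbrain and spinal cord markers was. Expression in only 1 group could be enough for that. The 10 forebrain markers summed to 1150 to 1391 CPM in P0 wild types and 1568 to 1709 in P0 knockouts. Their median log2 fold changes were 0.30 at P0 and -0.02 at P14. The 10 hippocampal markers summed to 1401 to 1757 CPM in P14 controls and 1248 to 1315 in P14 knockouts. The part of tissue composition in the interaction was not tested.

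Of 18189 genes tested, 326 (1.79%) had an interaction with a Benjamini-Hochberg adjusted p under 0.05 in edgeR's quasi-likelihood test. The difference (P14 effect minus P0 effect) was positive for 249 genes (1.37%) and negative for 77 (0.423%). Positive differences thus made up 76.4% of the interaction genes, against 48.7% of all genes tested, whose median difference was -0.01. The interaction took 3 main forms. For 162 genes (0.891% of those tested) the knockout effects had opposite signs and each had an unadjusted p under 0.05, called opposite below. For 95 genes (0.522%) only the P14 effect reached that level, and for 66 genes (0.363%) only the P0 effect did. These are called P14-led and P0-led, and an unadjusted p that missed does not show that a gene was unaffected in that context. The other 3 genes (0.0165%), Sema3d, Sema3e and Pbx3, had effects of the same sign but different size, all with a positive difference. An unadjusted p under 0.05 was reached by 15.7% of genes at P0, 14.1% at P14 and 15.3% for the interaction itself. Whatever the interaction p, 250 genes (1.37%) reached it in both contexts with opposite signs and 285 (1.57%) with the same sign. The interaction threshold favours effects of opposite sign, so the 162 and 3 genes do not show that reversal prevailed.

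**Figure D1:**
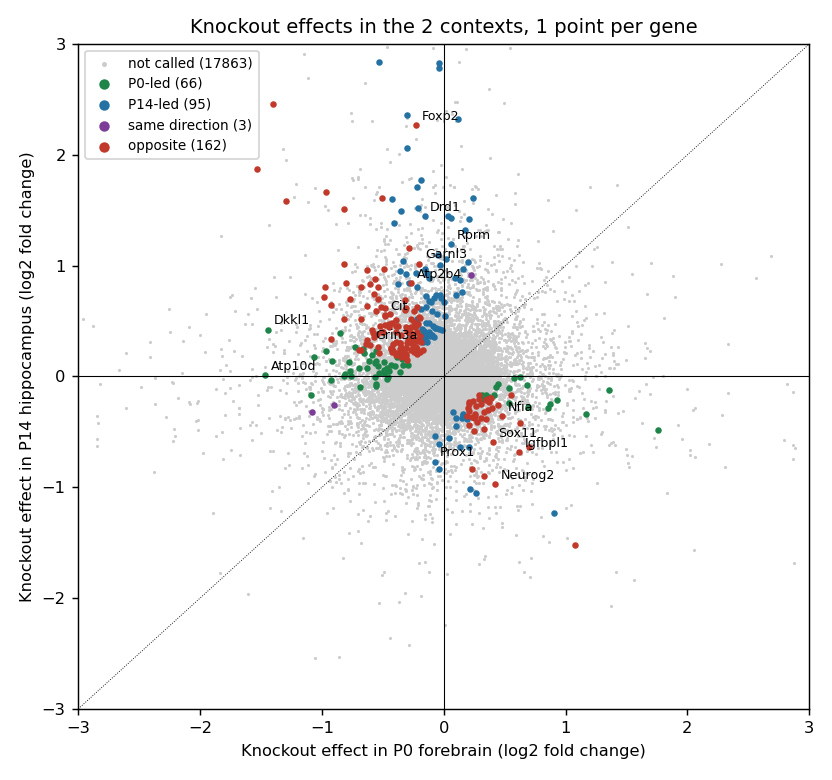
Knockout effect in P0 forebrain (x axis, log2 fold change) against the effect in P14 hippocampus (y axis, log2 fold change), with 1 point per gene tested and colours for the form of the interaction. The 162 opposite genes fill the upper left and lower right quadrants, the 95 P14-led genes lie along the vertical axis and the 66 P0-led genes along the horizontal axis. Of all genes, 33 lie beyond the axis limit of 3, including 5 interaction genes.

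The opposite genes were unequally split. In 123 of them (0.676% of genes tested) expression was lower in P0 knockouts and higher in P14 knockouts, and in 39 (0.214%) it was higher at P0 and lower at P14. In 113 of the 162, all knockout libraries lay on one side of all controls in both contexts (86 lower at P0, 27 higher at P0), while 363 of all genes tested (2.0%) had libraries separated in opposite directions. The sizes were modest and similar in the 2 contexts, with median absolute log2 fold changes of 0.35 at P0 and 0.38 at P14. In P14-led genes the corresponding medians were 0.14 and 0.73, and in P0-led genes 0.57 and 0.12.

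Of the 39 genes that were higher in the P0 knockouts and lower in the P14 knockouts, 8 are neural transcription factor genes that are described first. They are Sox11, Neurog2, Neurod1, Nhlh2, Bhlhe22, Scrt2, Nfia and Nfib, of which all but Scrt2 passed whichever of the 12 libraries was left out. Sequence upstream of 3 of them is shown because these factors had the same form of interaction. Each run holds the 250 bases before the RefSeq start (GRCm38.p6), from 5′ to 3′ on the gene's strand. Capitals mark any of 5 motifs that were searched on both strands.

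Sox11 (chr12:27342719-27342968, minus strand): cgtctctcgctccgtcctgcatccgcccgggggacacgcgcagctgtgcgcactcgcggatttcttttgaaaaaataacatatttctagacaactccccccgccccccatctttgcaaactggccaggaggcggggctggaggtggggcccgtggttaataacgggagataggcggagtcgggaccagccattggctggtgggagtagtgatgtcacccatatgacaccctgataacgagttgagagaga
Neurog2 (chr3:127632886-127633135, plus strand): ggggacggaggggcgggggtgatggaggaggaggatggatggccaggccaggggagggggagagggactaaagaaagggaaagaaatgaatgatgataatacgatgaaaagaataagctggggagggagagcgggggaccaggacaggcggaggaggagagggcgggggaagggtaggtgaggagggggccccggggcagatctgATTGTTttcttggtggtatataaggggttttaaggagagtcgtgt
Nhlh2 (chr3:102009895-102010144, plus strand): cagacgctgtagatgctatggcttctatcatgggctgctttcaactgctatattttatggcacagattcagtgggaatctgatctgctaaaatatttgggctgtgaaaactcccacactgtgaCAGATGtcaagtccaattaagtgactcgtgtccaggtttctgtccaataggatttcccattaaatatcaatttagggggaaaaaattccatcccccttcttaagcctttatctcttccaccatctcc

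The motifs were the nuclear factor I binding motif TTGGCA, the SOX motif AACAAT, the forkhead motif GTAAACA, the cyclic AMP response element TGACGTCA and the NEUROD E-box CAGATG. In the windows shown, the capitals in Neurog2 are a SOX motif on the reverse strand and those in Nhlh2 an E-box. RefSeq windows running from 250 bases before to 50 after the start were matched for 12424 tested genes, including 232 interaction genes. The binding motif was in 6 of the 32 windows of opposite genes that were higher at P0 (18.8%), in 10 of 88 that were lower at P0 (11.4%) and in 11.6% of all windows. The E-box was in 12.5%, 14.8% and 12.2% of the same sets, and the SOX motif in 9.38%, 4.55% and 6.0%. These shares were not tested, and a match is not evidence of binding.

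Sox11 (ENSMUSG00000063632, chromosome 12 from 27334264 to 27342574), which encodes a SOX factor of early neurons, had 554, 462 and 511 CPM in P0 wild types and 654, 722 and 643 in P0 knockouts. At P14 the controls had 86.7, 97.1 and 91.3 CPM and the knockouts 63.5, 55.6 and 63.4. The genotypes did not overlap in either context, with the knockouts above at P0 and below at P14. The log2 fold changes of 0.40 and -0.59 differed by -0.996 (SE 0.12, edgeR adjusted p 8.58e-05). Neurog2, a proneural factor that commits progenitors to an excitatory fate, had 5.63, 4.45 and 6.76 against 7.64, 7.79 and 7.32 CPM at P0. At P14 it had 4.68, 4.36 and 3.85 against 1.89, 2.32 and 2.35 CPM. The difference of -1.39 (SE 0.28) had an edgeR adjusted p of 0.0110. Neurod1, which drives differentiation of granule and other excitatory neurons, overlapped between genotypes at P0 (33.5, 26.4 and 30.6 against 32.2, 40.9 and 33.4 CPM). At P14 it was at 78.2, 75.7 and 67.5 CPM in controls and 43.6, 37.3 and 43.4 in knockouts. Its difference of -1.06 (SE 0.15, edgeR adjusted p 0.000668) was thus carried mostly by P14.

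Nhlh2, a helix-loop-helix gene of postmitotic neurons and of Cajal-Retzius cells, had 17.8, 19.0 and 19.1 CPM in P0 wild types and 23.1, 25.3 and 21.9 in P0 knockouts. At P14 it had 10.1, 9.10 and 9.54 CPM in controls and 5.57, 4.41 and 5.47 in knockouts, and the difference was -1.23 (SE 0.18). Igfbpl1, a secreted protein gene that marks immature neurons, had effects of similar size in both contexts. Its P0 values were 178, 172 and 221 CPM in wild types and 305, 317 and 256 in knockouts. Its P14 values were 56.4, 55.3 and 50.6 CPM in controls and 37.3, 28.2 and 35.7 in knockouts, giving log2 fold changes of 0.62 and -0.68 (difference -1.30, SE 0.16, edgeR adjusted p 0.000278). Draxin, a secreted axon guidance protein and Wnt antagonist, also belonged to this set (difference -0.64, SE 0.13), as did Islr2, a membrane protein of growing axons (-0.46, SE 0.11). Both lost their calls in some of the 12 fits, Draxin in 3 and Islr2 in 8.

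The pattern did not hold for immature neuron genes in general. Of 29 on that list, 4 had a negative interaction (Igfbpl1, Neurod1, Sox11 and Draxin), 1 a positive one and 24 none, and the median difference was -0.04. The positive member was Gap43, a growth cone protein, with log2 fold changes of -0.12 at P0 and 0.48 at P14. Sox4, a close relative of Sox11, had log2 fold changes of 0.33 and 0.03 (edgeR adjusted p 0.260 for the interaction). Neurod6 (0.37 and -0.05, edgeR adjusted p 0.0875) and Eomes, the marker of intermediate progenitors (0.58 and -0.75, edgeR adjusted p 0.0671), lay just outside the threshold.

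The nuclear factor I family was divided. Its 4 genes encode factors that time the shift from neurogenesis to glial and late neuronal programs. Nfia (ENSMUSG00000028565, chromosome 4) had 64.0, 54.7 and 61.9 CPM in P0 wild types and 72.1, 92.9 and 87.0 in knockouts. At P14 it had 112, 117 and 102 CPM in controls and 83.2, 80.7 and 94.0 in knockouts. Nfib had 271, 223 and 272 against 301, 360 and 301 CPM at P0 and 281, 293 and 286 against 202, 194 and 226 CPM at P14. Every knockout library was above every control at P0 and below at P14 for both genes. The differences were -0.84 for Nfia (SE 0.13, edgeR adjusted p 0.00186) and -0.80 for Nfib (SE 0.13, edgeR adjusted p 0.00176). Nfic and Nfix had differences of 0.09 (SE 0.12) and 0.02 (SE 0.14). Both Nfia and Nfib lie on chromosome 4.

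**Figure D2:**
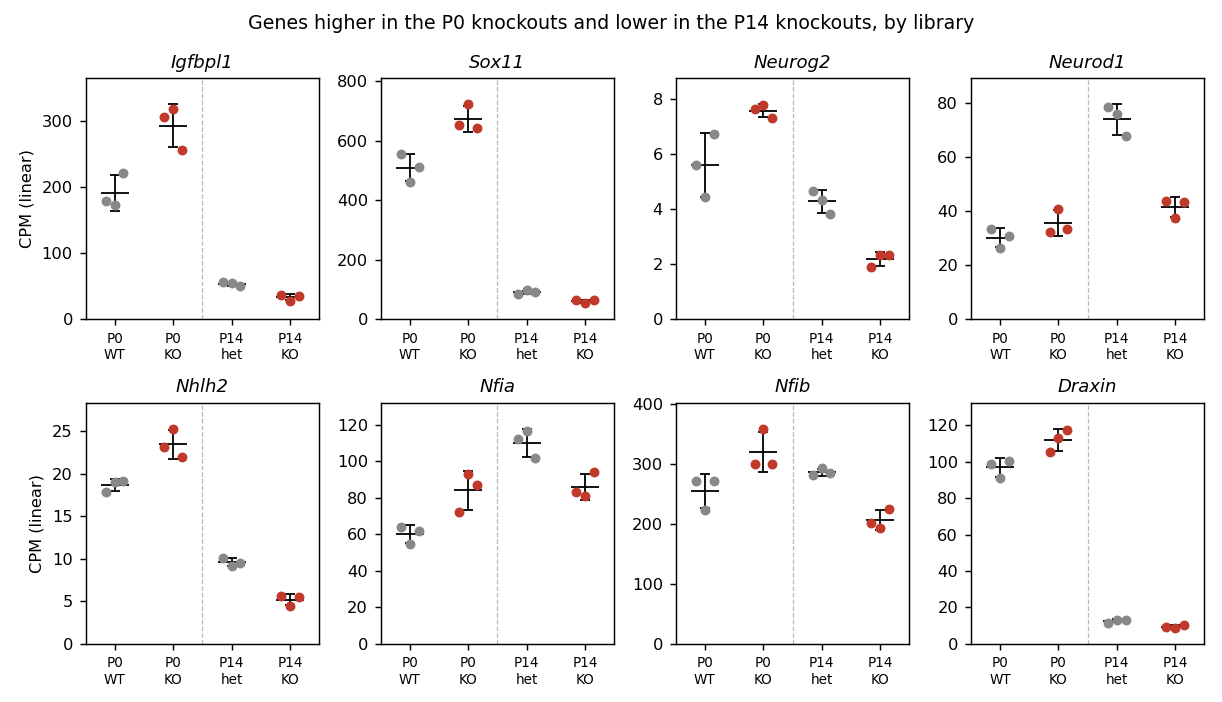
CPM (linear y axis, starting at 0) of 8 genes that were higher in P0 knockouts (KO) than wild types (WT) and lower in P14 knockouts than flox-het controls (het). Points are libraries, 3 per group, and bars are means with SD. In Neurod1 the P0 groups overlap, and in the other 7 genes the groups are separate in both contexts.

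Other members of the smaller set had roles outside neuronal identity. Mir17hg, the host transcript of the miR-17 to miR-92 cluster, had 2.10, 4.13 and 3.49 CPM in P0 wild types and 8.35, 7.13 and 5.26 in knockouts, but 2.83, 2.74 and 2.00 against 0.945, 0.790 and 0.890 CPM at P14. Its log2 difference of -2.60 (SE 0.38, edgeR adjusted p 0.000873) was the lowest among interaction genes that averaged at least 1 CPM in each context. Ddit4, a stress-induced inhibitor of the mTOR pathway, had 56.2, 50.8 and 59.4 against 86.1, 73.4 and 85.1 CPM at P0 and 87.8, 89.0 and 84.2 against 76.0, 80.5 and 75.2 at P14. The difference was -0.73 (SE 0.12), with most of it from P0. Trp53inp1 (-0.71) and Ccng2 (-0.58), which act in p53 and cell cycle arrest responses, had the same form. Of 62 splicing and RNA-binding genes on the list, 1 (1.61%, near the 1.79% of all genes) had an interaction, with 42 of 62 differences negative. It was Ptbp2, which represses neuronal exons (-0.48). Clk4, a kinase of splicing factors (-0.58), and Ythdc1, a reader of methylated adenosine in RNA (-0.49), are outside the list and had the same form. The 3 passed in 4, 4 and 5 of 12 leave-one-out fits. Cnr1, the cannabinoid receptor CB1, was also in this set, at -0.55. Ddit4, Trp53inp1, Ccng2, Clk4, Ythdc1, Scrt2 and Islr2 were named after their values were seen.

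Synaptic genes had interactions in the other direction. Of 69 genes for synaptic vesicles and release, 13 (18.8%, against 1.79% of all genes) had an interaction, all positive, and 57 of 69 differences were positive. The median difference of this list was 0.22, from medians of -0.17 at P0 and 0.04 at P14. The number of its interaction genes ranged from 5 to 24 across 22 other settings and left-out libraries. The members took different forms: opposite genes included Stx1a, Rims1, Rims2, Unc13c and Doc2a, P14-led genes included Rims3, Rims4, Syt6 and Cplx3, and P0-led genes included Cadps2, Slc17a7 and Sv2c.

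Rims1, an active zone scaffold that docks calcium channels near vesicles, had 90.8, 99.6 and 98.7 CPM in P0 wild types and 77.8, 74.6 and 86.2 in knockouts. In P14 controls it had 209, 206 and 207 CPM and in knockouts 241, 273 and 257. The groups were separate in both contexts, and the difference was 0.59 (SE 0.11, edgeR adjusted p 0.00605). All 4 measured Rims genes had positive interactions, with differences of 0.46 for Rims2, 0.45 for Rims3 and 0.48 for Rims4. Unc13c, a vesicle priming protein, had 24.03, 27.2 and 22.6 against 20.8, 21.2 and 17.5 CPM at P0 and 33.2, 33.8 and 40.2 against 54.6, 52.3 and 57.5 at P14. Its difference of 0.93 (SE 0.15, edgeR adjusted p 0.00186) was the largest of the opposite members. Stx1a, the plasma membrane SNARE syntaxin 1A, had 127, 131 and 127 against 93.4, 93.1 and 128 CPM at P0, so that 1 knockout library lay within the wild-type range. The P14 values were 157, 137 and 144 against 188, 190 and 205 CPM (difference 0.70, SE 0.14, edgeR adjusted p 0.0111).

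Other abundant release genes did not pass. Syn1, which tethers vesicles, had log2 fold changes of -0.27 and 0.07 (edgeR adjusted p 0.162), and Snap25, a SNARE protein gene, -0.26 and -0.09 (edgeR adjusted p 0.578). The P0-led members were lower in P0 knockouts with little difference at P14. Cadps2, which primes dense-core vesicles, had 34.9, 36.9 and 28.6 against 19.6, 16.2 and 22.4 CPM at P0 and 120, 120 and 115 against 126, 116 and 125 CPM at P14 (difference 0.82, SE 0.15). Sv2c, a vesicle glycoprotein, had a difference of 0.87 (SE 0.15). Slc17a7, the vesicular glutamate transporter VGLUT1, had 76.0, 61.4 and 80.0 against 46.2, 49.6 and 54.6 CPM at P0. At P14 it was at 1736 ± 108 CPM in controls and 1771 ± 115 in knockouts (SD, n = 3 each), and its log2 fold changes were -0.53 and 0.03.

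Receptor genes followed the same direction in smaller numbers. Of 17 ionotropic glutamate receptor genes, 2 (11.8%, against 1.79% of all genes) had an interaction, both positive. Grin3a, an NMDA receptor subunit of young synapses, had 159, 153 and 142 against 101, 95.0 and 101 CPM at P0 and 62.7, 74.8 and 84.6 against 88.3, 85.9 and 97.0 at P14. It was opposite and separated in both contexts (difference 0.89, SE 0.13, edgeR adjusted p 0.000699), although control replicate 3 lay close to the lowest knockout at P14. Grik3, a kainate receptor subunit, was P14-led, at 37.5, 45.3 and 58.4 against 95.0, 100.2 and 94.2 CPM at P14 (difference 0.83, SE 0.16). The obligatory NMDA subunit gene Grin1 had log2 fold changes of -0.20 and 0.20 that did not pass (edgeR adjusted p 0.133). Of 27 metabotropic receptors and auxiliary subunits, 4 (14.8%) had positive interactions (Grm4, Sorcs1, Gsg1l and Sorcs2). Differences were positive for 25 of 27, against 48.7% of all genes, with a median of 0.26.

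Gabra3, which encodes the GABA-A receptor subunit alpha 3, prominent in immature circuits, had 139, 127 and 109 against 114, 109 and 99.1 CPM at P0, where the groups overlapped. The P14 values were 56.3, 56.8 and 50.7 against 85.9, 82.5 and 84.1 CPM (difference 0.84, SE 0.12, edgeR adjusted p 0.000734). Gabrg3 was P0-led (difference 0.61) and Gabrq, for the theta subunit, was opposite (1.59, SE 0.34). These 3 were accompanied by Gabbr2, a GABA-B receptor subunit (0.51), the GABA transporter gene Slc6a11 (0.61) and Slc12a5, which encodes the chloride extruder KCC2 (0.59). The last 3 were named after their values were seen. Of 16 GABA-A and glycine receptor genes on the list, 14 had a positive difference and 2 (12.5%, against 1.79% of all genes) passed.

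Among 47 receptors for serotonin, dopamine, acetylcholine, noradrenaline, opioids and cannabinoids, 3 had positive interactions (Drd1, Chrna4 and Oprm1) and 1 a negative one (Cnr1). The share with an interaction was 8.51%, against 1.79% of all genes. Differences were positive for 38 of 47, against 48.7% of all genes, with a median of 0.47. Chrna4, a nicotinic receptor subunit, had 38.1, 39.4 and 36.1 against 29.4, 24.9 and 30.2 CPM at P0 and 28.6, 23.5 and 27.4 against 30.9, 32.3 and 30.8 at P14 (difference 0.67, SE 0.14). Lypd6 and Lypd6b, membrane proteins that modulate nicotinic receptors and lie on chromosome 2, were opposite as well (0.53 and 0.83). Peptide hormone receptors included Avpr1a for vasopressin, at 5.21, 6.16 and 4.54 against 3.02, 2.07 and 2.90 CPM at P0 and 0.751, 1.06 and 1.11 against 1.89, 1.25 and 2.03 at P14 (difference 1.78, SE 0.38, edgeR adjusted p 0.0172). Rxfp1 for relaxin was opposite (1.57, SE 0.24), as was Crhr1 for corticotropin-releasing hormone (0.91). Oxtr for oxytocin (0.78) and Mchr1 for melanin-concentrating hormone (1.00) were P0-led, with P14 log2 fold changes of 0.08 and 0.27. Each passed in 4 of 12 leave-one-out fits, Crhr1 in 6 and Lypd6 in 2. Avp, the vasopressin gene itself, had 11.6, 19.9 and 13.7 against 13.04, 13.43 and 17.2 CPM at P0. It was at 0.231, 0.0558 and 0.422 CPM in P14 controls and 2.19, 1.16 and 1.78 in P14 knockouts. Avp was thus P14-led, and it averaged under 1 CPM over the P14 libraries from which its call came. Lypd6, Lypd6b, Crhr1, Oxtr and Mchr1 were named after their values were seen.

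Channels and pumps contributed few genes, all with positive interactions. They were Kcnh3, Kcnh4 and Kcnk9 of 79 potassium channel genes (3.8%), and 3 of 32 sodium, calcium and HCN channel genes (9.38%), among them Cacna1a and Cacna2d2. The share among all genes was 1.79%. Kcnh3, a voltage-gated potassium channel, had 25.8, 24.2 and 27.8 against 19.8, 18.7 and 24.4 CPM at P0, where 1 knockout library lay within the wild-type range. At P14 it was at 109, 102 and 94.3 CPM in controls and 134, 137 and 134 in knockouts (difference 0.71, SE 0.13, edgeR adjusted p 0.00687). Among 15 calcium pumps and exchangers, Atp2b4 (ENSMUSG00000026463, chromosome 1 from 133699457 to 133801041), which extrudes calcium at the plasma membrane, had 116, 113 and 116 against 98.78, 97.98 and 89.84 CPM at P0. At P14 it had 81.4, 88.4 and 101 against 173, 160 and 152 CPM, and the groups were separate in both contexts. Its paralogs Atp2b1, Atp2b2 and Atp2b3 had P0 log2 fold changes of -0.26, -0.25 and -0.23. Their P14 log2 fold changes of -0.03, 0.05 and 0.04 left differences of 0.23, 0.29 and 0.27, none past the threshold.

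Cadherins, which join cells at synapses and elsewhere, had positive interactions of 2 forms. Of 45 cadherins and non-clustered protocadherins, 7 (15.6%, against 1.79% of all genes) had an interaction, all positive, and the list median was 0.19. Cdh6, Cdh7, Cdh18 and Pcdh10 were opposite, and Cdh4, Cdh13 and Cdh22 P14-led. Cdh6 had 59.5, 52.7 and 50.9 against 35.0, 37.1 and 33.5 CPM at P0 and 18.89, 18.49 and 19.98 against 24.4, 21.7 and 26.3 at P14 (difference 0.96, SE 0.14, edgeR adjusted p 0.000668). Cdh7 had 22.85, 23.003 and 25.8 against 15.5, 16.9 and 17.7 CPM at P0 and 4.79, 4.24 and 4.43 against 6.31, 8.41 and 5.91 at P14 (difference 1.14, SE 0.20). Both separated the genotypes in both contexts. Cdh4, by contrast, had 139, 142 and 127 against 147, 147 and 139 CPM at P0, and 16.7, 19.7 and 20.5 against 38.8, 35.2 and 31.5 at P14 (difference 0.80, SE 0.13). None of 53 clustered protocadherins had an interaction in edgeR's test, and 0 to 3 passed in the other settings. An unadjusted p under 0.05 was reached by 8 of the 53, beside 15.3% of all genes. Of 93 synaptic adhesion and scaffold genes, 8 (8.6%, against 1.79% of all genes) had an interaction, all positive. They included Shank3, a postsynaptic scaffold (0.56), Lrrtm3 and Nrxn2 (0.62 and 0.47), which form trans-synaptic contacts, and Camk2d, a calcium-calmodulin kinase (0.71). The number of these genes ranged from 2 to 20 over the other settings.

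**Figure D3:**
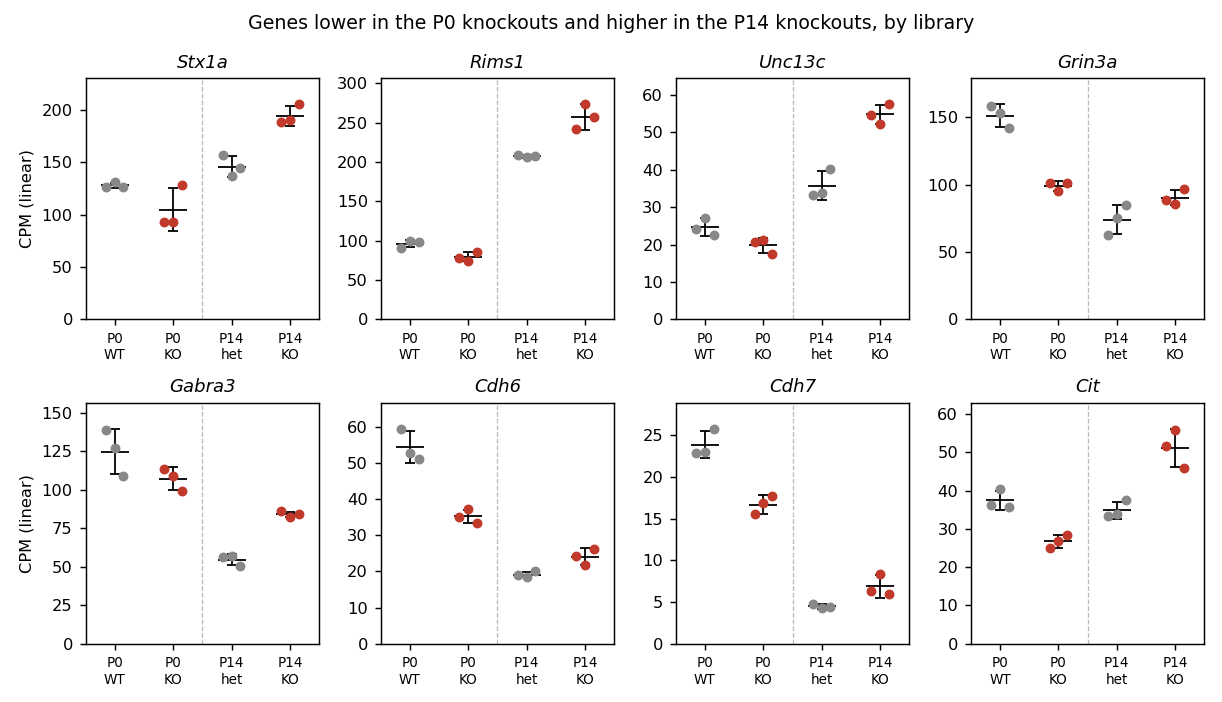
CPM (linear y axis, starting at 0) of 8 genes that were lower in P0 knockouts (KO) than wild types (WT) and higher in P14 knockouts than flox-het controls (het). Points are libraries, 3 per group, and bars are means with SD. The P0 groups of Stx1a and Gabra3 overlap, and those of Rims1, Unc13c, Grin3a, Cdh6, Cdh7 and Cit do not.

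Cit, which encodes citron kinase, a protein of cytokinesis with a neuronal isoform at synapses, had 36.2, 40.4 and 35.8 against 25.0, 26.9 and 28.3 CPM at P0 and 33.3, 34.0 and 37.5 against 51.8, 55.9 and 45.8 at P14. Its difference was 1.04 (SE 0.14, edgeR adjusted p 0.000278), while the median of 49 cell cycle genes was -0.18 and no other of them had an interaction. Signalling genes with the opposite form included Adcy1 and Adcy5, adenylyl cyclases that make cyclic AMP, with differences of 0.61 and 0.74. Slc7a3, a cationic amino acid transporter, went from 16.7 ± 4.21 to 9.69 ± 1.65 CPM at P0 and from 8.30 ± 1.15 to 13.5 ± 1.87 at P14 (SD, n = 3 each, difference 1.47, SE 0.25). Kif1a, the kinesin motor that carries synaptic vesicle precursors, had 967, 932 and 1014 against 791, 836 and 887 CPM at P0 and 1028, 1038 and 1293 against 1413, 1414 and 1419 at P14 (difference 0.55, SE 0.12). It passed in 6 of 12 leave-one-out fits. Kif1a and Adcy1 were named after their values were seen.

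Marker genes of deep neocortical layers and of striatum had positive interactions, most of them P14-led in the first list. Of 26 deep-layer and subplate genes, 10 (38.5%) had an interaction, all positive, and 24 of 26 differences were positive with a median of 0.51. Of 24 striatal projection neuron genes, 6 (25.0%) had a positive interaction, and 23 of 24 differences were positive with a median of 0.65. The list medians were near -0.04 and -0.16 at P0 and 0.45 and 0.43 at P14. Between 6 and 12 of the deep-layer genes and between 4 and 9 of the striatal genes passed in the other settings. Both lists, like all other gene lists described here, were written with earlier results of these libraries known. The counts of any of these lists are therefore not independent evidence.

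Foxp2 (ENSMUSG00000029563, chromosome 6 from 14901349 to 15441977), a forkhead factor of deep-layer and striatal neurons, had the smallest adjusted p. It was at 95.1, 96.5 and 98.6 CPM in P0 wild types and 82.4, 76.2 and 89.4 in knockouts. At P14 it was at 1.91, 1.84 and 1.11 CPM in controls and 7.51, 8.69 and 6.995 in knockouts. By its unadjusted p at P0 it counted as opposite, but its P0 log2 fold change was only -0.23 against 2.27 at P14. Its paralog Foxp1 was also opposite (-0.19 and 0.37, difference 0.56, SE 0.11), whereas Foxp4 was not past the threshold (0.10 and 0.27). Garnl3 (ENSMUSG00000038860, chromosome 2 from 32986224 to 33131654), a GTPase-activating protein gene on the deep-layer list, had 86.4, 97.7 and 83.4 against 69.9, 74.1 and 88.2 CPM at P0, where the groups overlapped. Its P14 values were 40.6, 43.1 and 46.7 against 94.1, 79.2 and 90.7 CPM.

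Rprm, a layer 6 gene, had 109, 106 and 105 against 105, 97.8 and 130 CPM at P0 and 21.3, 18.9 and 16.03 against 43.4, 45.1 and 39.7 at P14 (difference 1.13, SE 0.15, edgeR adjusted p 0.000278). Cplx3, a complexin of subplate neurons, had 1.34, 2.35 and 1.05 against 1.59, 0.414 and 1.15 CPM at P0 and 3.12, 2.18 and 0.949 against 11.7, 18.4 and 14.3 at P14. Its difference was 3.37 (SE 0.64, edgeR adjusted p 0.0179), and it passed in 10 of 12 leave-one-out fits. Drd1, the dopamine D1 receptor of striatal and layer 6 neurons, had 2.54, 3.18 and 2.58 against 5.47, 9.76 and 7.44 CPM at P14 and overlapping P0 groups (difference 1.61, SE 0.30). Meis2, a homeobox gene of striatal neurons, had 29.9, 36.2 and 32.4 against 59.1, 73.8 and 59.8 CPM at P14 (difference 0.81, SE 0.13). Mean levels in the P14 knockouts were below the means of both P0 groups for Foxp2, Rprm, Drd1, Meis2 and Cdh4. This did not hold for Cplx3, whose P14 knockouts were above every P0 library, or for Garnl3, whose P14 knockout mean exceeded that of P0 knockouts. Other striatal markers did not pass: Drd2 had a difference of 0.08 (SE 0.28) and Ppp1r1b 1.07 (SE 0.28, edgeR adjusted p 0.0842).

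Summed levels of marker lists for tissue near the hippocampus differed in direction. The summed level of the 24 striatal genes was 862 to 869.6 CPM in P14 controls and 1005 to 1192 in P14 knockouts, and that of the 26 deep-layer genes 1144.5 to 1188 and 1348 to 1492. The 22 choroid plexus genes summed to 424, 1518 and 3713 CPM in controls and 2042, 2821 and 1951 in knockouts, so that controls spanned the knockouts, and none had an interaction. The 23 thalamic and hypothalamic genes summed to 266 to 319.6 CPM in controls and 244 to 259 in knockouts. A sum follows the abundant genes. The mean log2 of CPM plus 1 was 2.30, 2.19 and 2.21 in controls and 2.37, 2.29 and 2.27 in knockouts. Of these 23 genes, 14 had a positive difference, with a median of 0.37, as did 9 of the 10 with an unadjusted p under 0.05. Of 40 motile cilia and ependymal genes, 36 had a positive difference with a median of 0.64. None of them passed in edgeR's test, and 0 to 5 passed in the other settings. An unadjusted p under 0.05 was reached by 11 of the 40, beside 15.3% of all genes. The part of adjoining tissue in the P14-led genes was not tested.

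P14-led genes with a negative interaction were 18, and several are hippocampal. Prox1, the homeobox factor that specifies dentate granule cells, had 53.9, 58.6 and 54.3 against 53.8, 56.5 and 48.1 CPM at P0 and 172, 200 and 202 against 116, 97.7 and 123.7 at P14. Its difference was -0.69 (SE 0.13, edgeR adjusted p 0.00775). Epha7, an ephrin receptor, had 102, 101 and 91.5 against 95.1, 101 and 89.2 CPM at P0 and 186, 185 and 185 against 119, 112 and 133.9 at P14 (difference -0.57, SE 0.11). Rfx3, a regulatory factor X gene (-0.60), and Bok, a member of the BCL2 family (-0.55), were also lower in P14 knockouts. Iyd, an iodotyrosine deiodinase gene, had 14.8, 9.44 and 10.1 against 4.77, 4.74 and 5.09 CPM at P14 and averaged under 1 CPM at P0. The dentate granule list as a whole had no shared interaction: of 21 genes, 2 were negative and 1 positive, and the median difference was -0.01. Its median was below 0 in both contexts, at -0.18 and -0.52, and its summed level in P14 controls, 1699 to 1800 CPM, was above the 1319 to 1387 CPM of knockouts.

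Semaphorins, secreted and membrane cues that steer axons, went different ways within 1 family. Of 31 semaphorins, plexins and neuropilins, 6 (19.4%, against 1.79% of all genes) had an interaction, 4 positive and 2 negative, with a list median of 0.04. Sema3a was P14-led and higher in P14 knockouts (6.12, 4.02 and 5.59 against 10.64, 12.03 and 10.81 CPM, difference 1.14, SE 0.18). Sema3c was P14-led and lower there (133, 130 and 121 against 71.6, 61.2 and 82.4 CPM, difference -0.80, SE 0.18). Sema3d and Sema3e were lower in knockouts of both contexts, and more so at P0. Sema3e had 14.3, 12.72 and 13.01 against 6.44, 6.63 and 8.17 CPM at P0 and 108, 104 and 104 against 87.1, 88.6 and 88.5 at P14, and its log2 fold changes were -0.90 and -0.26 (difference 0.64, SE 0.14, edgeR adjusted p 0.0163). Plxnc1, a semaphorin receptor, was opposite (0.57) and Sema4c P0-led (-0.56). Sema3a, Sema3c, Sema3d and Sema3e all lie on chromosome 5, as does Auts2.

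P0-led genes comprised 46 with a positive and 20 with a negative interaction. The positive ones were lower in P0 knockouts and included genes whose levels climb as neurons mature. Ddn, a postsynaptic dendrin, had 49.0, 49.0 and 37.3 against 24.4, 25.9 and 28.9 CPM at P0 and 1294, 1184 and 1091 against 1150, 1357 and 1063 at P14 (difference 0.76, SE 0.16). Nrgn, a postsynaptic calmodulin-binding protein, had log2 fold changes of -0.56 and 0.14 (difference 0.69). Cntn1, an adhesion molecule of axons, had -0.56 and -0.09 (difference 0.47), and Cacna1a, the P/Q-type calcium channel, -0.61 and 0.14 (difference 0.75). P2ry12, a purinergic receptor of microglia, had 8.32, 8.10 and 6.87 against 4.22, 4.48 and 3.57 CPM at P0 and 71.6, 75.6 and 66.4 against 65.0, 69.4 and 75.2 at P14 (difference 0.90, SE 0.17). It alone of 26 microglial genes (3.85%, against 1.79% of all genes) had an interaction. Differences were positive for 20 of 26, against 48.7% of all genes. The negative genes were higher in P0 knockouts and included Neurod2, Lhx2, Mycn and Rbpj, which act in cortical neurons and progenitors. These 4 passed in 3, 5, 4 and 2 of 12 leave-one-out fits. Neurod2 had 212, 191 and 261 against 287, 303 and 316 CPM at P0, with log2 fold changes of 0.45 and -0.07 (difference -0.52, SE 0.13, edgeR adjusted p 0.0433). Mir124a-1hg, a host transcript of a neuronal microRNA, had 46.0, 51.4 and 52.9 against 83.3, 78.8 and 70.1 CPM at P0 and a P14 log2 fold change of 0.00 (difference -0.63, SE 0.14). Ddn, Nrgn, Mycn, Rbpj and Mir124a-1hg were named after their values were seen.

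Chromosome 5, which carries Auts2, held 35 of the 326 interaction genes (10.7%) and 1200 of 18189 genes tested (6.6%). The share was 13 of 66 in P0-led genes (19.7%), 16 of 162 in opposite genes (9.88%) and 4 of 95 in P14-led genes (4.21%). Within 10 Mb of Auts2, 8 of 294 genes tested were interaction genes (2.72%), among them Stx1a and Caln1, and within 20 Mb 10 of 536 (1.87%). Atp10d, a phospholipid flippase gene on this chromosome, had 15.4, 14.9 and 8.86 against 5.01, 4.39 and 4.66 CPM at P0 and 4.71 ± 0.304 against 4.75 ± 0.702 CPM at P14 (SD, n = 3 each, difference 1.47, SE 0.29). For Hfm1, a meiotic helicase gene (3.28, 4.78 and 9.25 against 16.9, 15.2 and 13.6 CPM), and Rbpj, the Notch effector (26.9, 29.6 and 44.4 against 57.5, 60.4 and 46.5 CPM), wild-type replicate 3 was again the library nearest the knockouts at P0. Knockout replicate 3 was likewise the knockout library nearest the wild types for Hfm1 and Rbpj. Atp10d and Caln1 were named after their values were seen. A role of the sequence around the targeted allele was not tested.

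**Figure D4:**
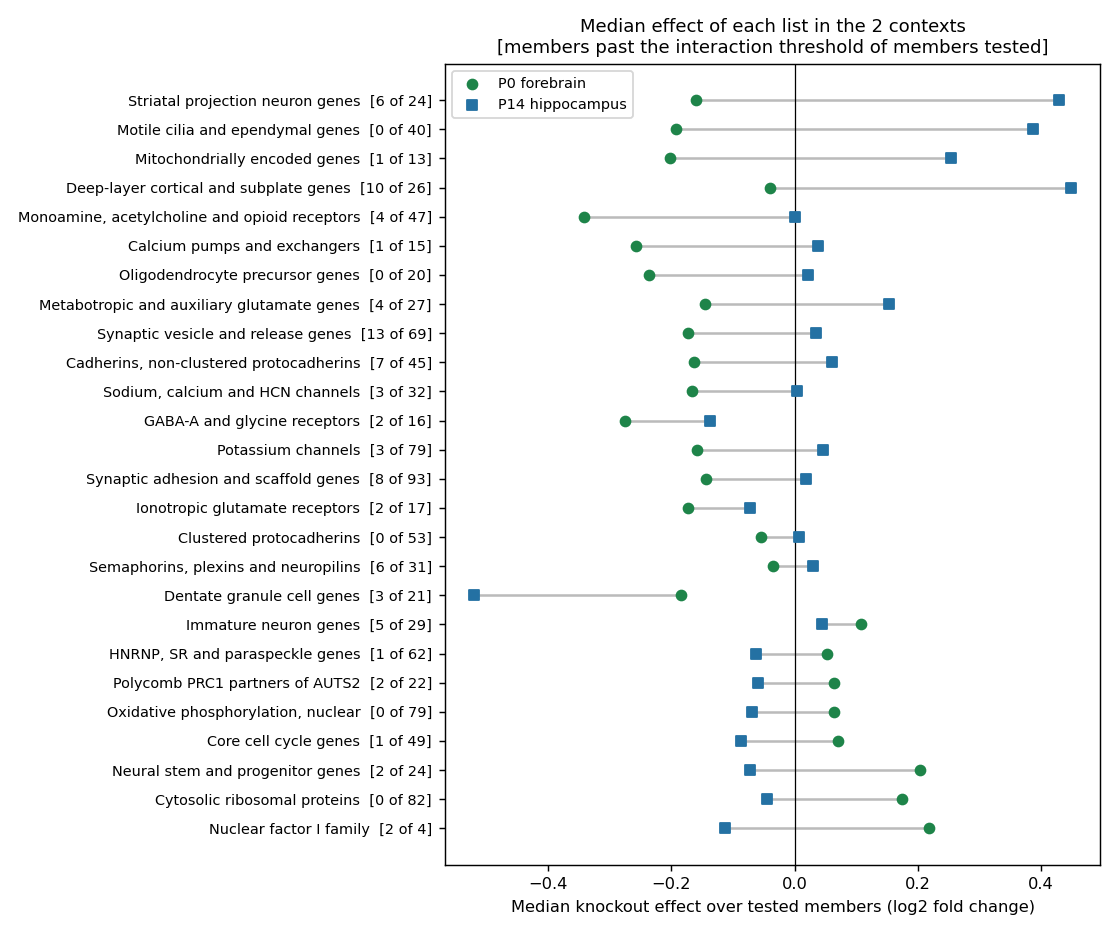
Median knockout effect (x axis, log2 fold change) of 26 gene lists at P0 (circles) and P14 (squares), ordered by the median difference, with the number of interaction genes of those tested in brackets. Striatal, deep-layer, ependymal and mitochondrially encoded genes have higher P14 medians, whereas ribosomal, progenitor and nuclear factor I genes have lower ones.

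In some large groups most differences had the same sign while few or no single genes passed. Of 82 cytosolic ribosomal protein genes, 76 had a negative difference, with medians of 0.17 at P0, -0.04 at P14 and -0.22 for the difference, and none passed in edgeR's test, where 27 had an unadjusted p under 0.05. Of 79 nuclear genes for oxidative phosphorylation, 71 had a negative difference (median -0.15) and none passed, with 15 at an unadjusted p under 0.05. Among all genes tested, 15.3% had such an unadjusted p. The 13 genes encoded by mitochondrial DNA went the other way, with 12 positive differences and a median of 0.52, and 1 of them, mt-Co3, passed. Across the other settings 0 to 26 ribosomal, 0 to 13 nuclear oxidative phosphorylation and 0 to 8 mitochondrial genes passed. Without P14 control replicate 3 the medians were -0.33, -0.25 and 0.58. Near-identical nuclear copies of mitochondrial and ribosomal genes make their counts uncertain. Of 24 neural stem and progenitor genes, 16 had a negative difference (median -0.20), with Lhx2 and Neurog2 past the threshold (8.33%, against 1.79% of all genes).

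Because AUTS2 works with a variant Polycomb complex and with Rac1, Polycomb genes and Rac1 and Cdc42 pathway genes were examined as 2 lists. The Polycomb list is wider than the complex that holds AUTS2. It includes genes of PRC2, such as Eed, so its counts do not describe partners of AUTS2 alone. Of 22 genes of Polycomb complexes, 2 (9.09%, against 1.79% of all genes) passed, both negative, and 0 to 4 passed in the other settings. Eed, a core subunit of PRC2, had 14.5, 14.8 and 18.4 against 18.5, 22.8 and 20.4 CPM at P0 and 15.3, 15.4 and 16.5 against 12.1, 13 and 13.2 at P14 (difference -0.66, SE 0.17, edgeR adjusted p 0.0465). Bmi1, a PRC1 subunit, had log2 fold changes of 0.18 and -0.37 (difference -0.55, SE 0.14, edgeR adjusted p 0.0463). They passed in 3 and 2 of 12 leave-one-out fits. Ezh2 (0.27 and -0.21), Ring1 (0.31 and -0.08), Rnf2 (0.02 and -0.16) and Suz12 (0.02 and -0.24) did not pass, and 15 of 22 differences were negative with a median of -0.11. None of 36 Rac1 and Cdc42 pathway genes had an interaction in edgeR's test, where 11 had an unadjusted p under 0.05, and their median was 0.05. In the other settings, DESeq2 included, 0 to 6 passed. With all libraries, edgeR's test also called no interaction among 26 astrocyte, 20 oligodendrocyte precursor, 25 myelin, 30 endothelial, 56 BMP and TGF-beta or 31 cholesterol synthesis genes. In these lists 8, 9, 1, 8, 8 and 5 genes had an unadjusted p under 0.05, and at most 6, 5, 1, 2, 1 and 2 passed in the other settings. Among all genes tested, 15.3% had an unadjusted p under 0.05.

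The number of interaction genes depended on single libraries. It was 905 without P14 flox-het replicate 3, 590 without P0 knockout replicate 3, 467 without P0 wild-type replicate 3, and 125 without P14 flox-het replicate 2. Without 1 of the other 8 it lay between 140 and 229. Of the 326 genes, 97 passed in all 12 of these fits: 59 opposite, 30 P14-led and 8 P0-led, with 81 of them positive. Of the genes named above, Nrxn2, Cntn1, Shank3, Cacna1a, Sema3d and Oprm1 passed in 2 of these fits, and Hfm1, Bok, Rims3, Sorcs2, Kcnk9, Slc12a5 and mt-Co3 in 3. Sema3c, Cnr1, Gabrg3, Lrrtm3, Doc2a and Kcnh4 passed in 4, Sema4c, Scrt2, Gabbr2, Cacna2d2, Nrgn, Cdh22 and Iyd in 5, and Rims2, Slc17a7, Caln1 and Mir124a-1hg in 6. None of the 326 changed the sign of its difference in any fit that tested it. The P0 libraries came in 2 number series, 1407 to 1410 and 1415 to 1416, the latter holding 1 library of each genotype. In that pair the P0 difference had the same sign as in the full fit for 266 of 326 genes, including 144 of 162 opposite and 53 of 95 P14-led genes. With only the 4 libraries of the first series at P0, 302 of the 326 genes passed and all kept their sign. The same libraries had served to choose the 326 genes, so agreement in sign in these comparisons was partly built in.

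**Figure D5:**
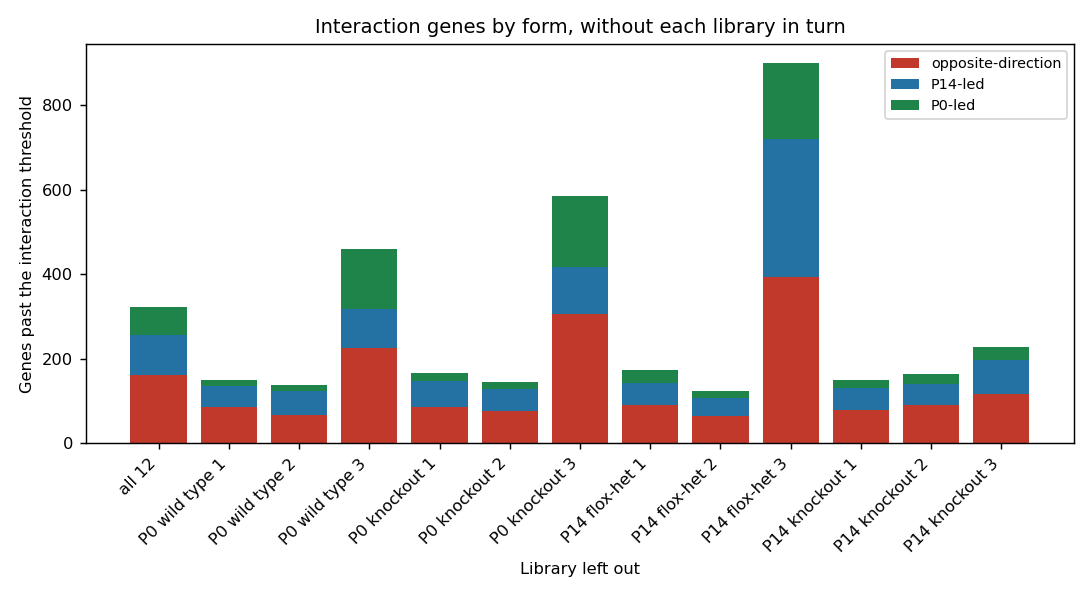
Number of genes past the interaction threshold (y axis, linear from 0) with all 12 libraries and without each library in turn, stacked by form: opposite, P14-led and P0-led. The count is 326 with all libraries, including 3 same-direction genes that are not drawn, and is highest without P14 flox-het replicate 3.

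Of the 326 genes, 13 averaged under 1 CPM in a context, and for the 3 described next the call came from a context in which they were near 0. Gbx1, a homeobox gene, was at 5.02 ± 0.985 and 4.54 ± 0.144 CPM in P0 wild types and knockouts. At P14 it was at 0, 0 and 0.0527 CPM in controls and 0.249, 0.465 and 0.254 in knockouts. Bank1, a B-cell scaffold gene, was at 0.336, 0.243 and 0.332 CPM in P0 wild types and 0, 0 and 0.0605 in knockouts, and at 1.62 to 2.28 CPM in all P14 libraries. Gbp6, an interferon-inducible GTPase on chromosome 5, was at 0 in all P0 wild types and at 0.477, 0.580 and 0.242 CPM in knockouts. No fold is given for these 3, since a few reads decide it, and they passed in 9, 2 and 4 of 12 leave-one-out fits.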

How the data were processed

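RNA of 12 mouse brain samples was sequenced, with 3 animals in each of 4 groups. The authors deposited raw counts per gene for each library, made with STAR 2.7.5a on GRCm38 (mm10), per the submitters' processing notes, which also name edgeR 3.12. The unstranded count column was used because the other 2 columns held near equal shares, so overlapping and antisense genes cannot be told apart. GENCODE symbols were matched for 55227 of 55487 gene identifiers. Levels are CPM on TMM-scaled library sizes, and log2 fold changes are those of edgeR's fit with its default prior count.

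The interaction was fitted over all 12 libraries with edgeR 4.0.16 in R 4.3.3 (filterByExpr, robust quasi-likelihood test, Benjamini-Hochberg adjustment over 18189 genes). The p-values measure the spread between these mice, with a common biological coefficient of variation of 0.103. On simulated data with 200 of 17902 genes changed 2-fold in P14 knockouts only, 89.5% were recovered and 3.24% of calls were false. The changed genes were drawn from well-counted genes, and every gene had the common spread. Among the real interaction genes the median absolute difference was 0.73, so these rates do not carry over to smaller differences, low counts or more variable genes. Reads carry no molecular identifiers, so depth covers counting error only.

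The text names Auts2, the 3 smallest adjusted p, the largest differences and opposite effects among genes with at least 1 CPM in each context, genes under 1 CPM by size, and members of the gene lists. The members and lists were chosen with earlier results of these data known. Epha7 and Cntn1 belong to lists, and genes outside the rule are marked in the text. Alternatives were other normalizations, filters, thresholds, count column, DESeq2 1.42.0, a GC offset from transcript sequences, the library number series, and leaving out each library. Some results are not reported here.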

Additional observations from a re-analysis of the deposited data

Results flagged for a closer look

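Knockout effects that differ between the contexts by the interaction test are listed here, and every one of the 326 interaction genes meets that condition. Of these, 162 had opposite effects in the 2 contexts. The 3 genes with the smallest adjusted p were Foxp2, Atp2b4 and Garnl3, whose P14 effects exceeded their P0 effects by 2.49, 1.11 and 1.22 on the log2 scale. All 3 passed in each of the 12 fits that left out 1 library.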

How the results depend on the processing

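None of the 326 interaction genes reversed in any alternative that tested it, but their number moved. The alternatives reused the libraries that had served to choose these genes, so agreement in sign was partly built in. An adjusted p under 0.1 gave 563 genes (183 P14-led, 161 P0-led), and an absolute difference of at least 1 gave 95 (42 opposite, 38 P14-led, 15 P0-led). DESeq2 gave 531 (173 P14-led, 159 P0-led). Without a filter on low counts there were 646 (277 opposite, 190 P14-led, 174 P0-led), and the larger strand column gave 205 (58 P14-led, 36 P0-led). With only P0 libraries 1407 to 1410 there were 852 (376 opposite, 336 P0-led). Leaving out 1 library gave 125 to 905 interaction genes, 64 to 394 opposite, 44 to 325 P14-led and 14 to 181 P0-led. The share of positive differences, 76.4% with all libraries, was 66.1% without a filter and 63.2% without P14 flox-het replicate 3. The causes were not tested. RLE scaling gave 330 genes, of which 317 were shared. The immature neuron median, -0.04, was as high as 0.03 with 1 library left out and 0.07 with only P0 libraries 1407 to 1410. It stayed negative under each other scaling. With the P0 library number series as a term there were 413 genes, of which 320 were shared. No paired analysis was possible because the labels give the groups no shared replicate numbers. With 3 mice a group, small differences and genes near 0 counts are beyond reach.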
